A study of Homo sapiens with 4 samples.

Results

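The protein-coding genes along chromosome 14 were compared between FLO-1LM and FLO-1 parental cells. Members were the protein-coding genes placed on GRCh37 chromosome 14 that had at least 10 counts in each of the 4 libraries, in order of gene start. Of 610 protein-coding genes listed on the chromosome, 406 were members, against 63677 genes listed in all and 11229 protein-coding genes of the other 21 autosomes under the same minimum. Another 125 had no count in any library, and 79 had a count in some library but fewer than 10 in at least 1. Olfactory receptor genes, which lie in a cluster near the centromere, made up 26 of the genes that were not members. All 406 members passed the filter on low counts. The members were chosen by their counts, and the chromosome was selected with the line contrast itself in view, so its shift and counts are given as a description with no test.

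The parental line, FLO-1, is an established line of human esophageal adenocarcinoma cells. FLO-1LM is its subline, grown in culture from a liver deposit after these cells had been passed serially through NSG mice, an immunodeficient strain. RNA from both lines was taken when the cultures had reached 80% confluency and had been given fresh media 24 hr earlier, and was sequenced as 2 libraries per line. No source says whether the libraries of a line were separate cultures, so the p-values measure only the spread between these libraries, which may be technical. Each library held 19060310 to 25920336 counts, and mitochondrial genes took 9.57% to 9.96% of them in FLO-1LM and 7.93% to 8.31% in parental cells.

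Chromosome 14 is acrocentric, which means that its centromere lies near one end and that its coding genes lie on the long arm, 14q. Genes along an arm are transcribed from their own promoters, yet they share the number of copies of the arm in a cell, and the RNA levels of many genes on an arm move together when that number changes. DNA copy number was not analysed here. Members on the arm include *HSP90AA1*, which encodes a heat shock chaperone, *HIF1A*, which encodes the oxygen-regulated subunit of a hypoxia transcription factor, and *BMP4*, which encodes a secreted growth factor.

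Promoter sequences are shown for 3 of the 4 members that passed the test, since they lie just before the positions where their transcripts begin. Each is the 250 bases before the RefSeq start, 5′ to 3′ on the gene's strand, found at 1 place in GRCh37 by an exact match. The start was also that of the canonical transcript. Capitals mark matches on either strand to CCAAT (the CCAAT box), GGGCGG (the GC box) or TTTGAA (the letters of a cell cycle homology region). FKBP3 lies at chr14:45603685-45603934 on the reverse strand, CDKN3 at chr14:54863475-54863724 on the forward strand and TDRD9 at chr14:104394543-104394792 on the forward strand.
FKBP3: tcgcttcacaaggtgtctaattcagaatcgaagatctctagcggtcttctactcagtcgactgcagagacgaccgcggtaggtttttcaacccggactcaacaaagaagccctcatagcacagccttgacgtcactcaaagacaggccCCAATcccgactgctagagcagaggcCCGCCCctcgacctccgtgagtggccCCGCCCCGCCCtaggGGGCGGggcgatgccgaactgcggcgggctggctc
CDKN3: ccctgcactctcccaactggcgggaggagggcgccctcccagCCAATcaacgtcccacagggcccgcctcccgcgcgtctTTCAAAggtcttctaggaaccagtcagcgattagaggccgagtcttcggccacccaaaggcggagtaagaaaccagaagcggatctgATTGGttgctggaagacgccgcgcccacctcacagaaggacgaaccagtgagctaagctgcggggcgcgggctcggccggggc
TDRD9: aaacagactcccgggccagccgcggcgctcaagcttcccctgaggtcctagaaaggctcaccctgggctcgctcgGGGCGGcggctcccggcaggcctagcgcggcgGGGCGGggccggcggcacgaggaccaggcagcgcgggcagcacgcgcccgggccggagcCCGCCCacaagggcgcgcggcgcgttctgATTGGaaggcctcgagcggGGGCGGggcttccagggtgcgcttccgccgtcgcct

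All 3 windows were rich in G and C, with 60.8% in *FKBP3*, 64.4% in *CDKN3* and 76.8% in *TDRD9*, and held 20, 21 and 35 CpG dinucleotides. The CCAAT letters stood at -102 bases from the start of *FKBP3*, at -208 and -83 in *CDKN3* and at -55 in *TDRD9*. The GC box stood 4 times each in *FKBP3* and *TDRD9*, with 1 pair in *FKBP3* overlapping, and TTTGAA stood once in *CDKN3*, at -170. Neither TATAAA (the TATA box) nor GAANNTTC (paired heat shock element units) was found in these 3 windows. The RefSeq window of the remaining called member, *HSP90AA1*, lies 52705 bases from its canonical start and is not shown.

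Of the 406 members, 357 had a promoter in the table. GGGCGG stood in 68.9% of these, in 70.0% of 9086 promoters of the compared genes on other autosomes and in 42.6% of all 35116 promoters. CCAAT stood in 36.97%, 34.7% and 32.0% of the same sets, TTTGAA in 9.52%, 7.495% and 13.3%, TATAAA in 4.48%, 4.78% and 10.7%, and GAANNTTC in 3.64%, 3.78% and 5.78%. The median number of CpG dinucleotides was 21 for the members, 22 for the other autosomes and 11 for all promoters. The members' promoters thus lay within 3 percentage points of those of the compared genes for every motif searched. These matches are letters in a window and were not tested as sites.

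Genes on chromosome 14 were on balance slightly higher in FLO-1LM. The log2 fold change, FLO-1LM against parental, had a median of 0.10 over the members and 0.0045 over the protein-coding genes of the other autosomes, a difference of 0.098, or 7.06% in RNA. The middle 50% of members lay between -0.01 and 0.19, against -0.10 and 0.11 elsewhere. Of the members, 295 were higher and 111 lower (72.7% higher, against 51.3% on the other autosomes). The shift was smaller than the median standard error of a single gene's log2 fold change, 0.12 over the members, and so it showed in the whole set and in few single genes.

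Single members ranged from a log2 fold change of -0.90 to 0.99, with 17 above 0.5 and 7 below -0.5. Both FLO-1LM libraries lay above both parental libraries for 176 members (43.3%), against a background of 21.9% on the other autosomes. For 38 members (9.36%) both lay below, against 20.9%, and for 192 the lines overlapped. At an unadjusted p below 0.05, 61 members (15.02%) were higher and 8 (1.97%) lower, against 5.57% and 5.71% elsewhere. These counts come from the contrast on which the chromosome was selected, and nothing further is read from them.

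Among the 22 autosomes, chromosome 14 had the highest median log2 fold change. Chromosome 8 followed at 0.07 over 398 genes, of which 64.1% were higher, and chromosome 18 at 0.04 over 161 genes, with 62.1% higher. The lowest medians were -0.05 on chromosome 22 and -0.03 on chromosome 1. Chromosome X, which is no autosome, had a median of 0.03. The lower quartile of chromosome 14 lay at -0.01, and those of the other autosomes lay from -0.15 to -0.04.

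The level of the arm was also taken in each library, as the median over members of a gene's log2 CPM minus its mean over the 4 libraries, relative to the other autosomes. It was 0.040 and 0.065 in the FLO-1LM libraries and -0.049 in both parental libraries. The lines did not overlap on this measure, and the gap between them, 0.089, exceeded the gap of 0.024 within FLO-1LM and of 0.00070 within parental cells. The difference of the means was 0.10. On the other autosomes the difference between lines ran from -0.050 to 0.063, and gaps within a line reached 0.051 in FLO-1LM and 0.069 in parental cells. Lines that did not overlap were not particular to chromosome 14. The gap between lines also exceeded both gaps within lines on chromosomes 8 (0.054), 18 (0.036) and 21 (0.014), with FLO-1LM higher. The same held on chromosomes 1 (0.035), 22 (0.030) and 11 (0.013), with FLO-1LM lower. Over the other autosomes the gap between lines ran from -0.024, where the lines overlapped, to 0.054, with a median of -0.0011.

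**Figure D1:**
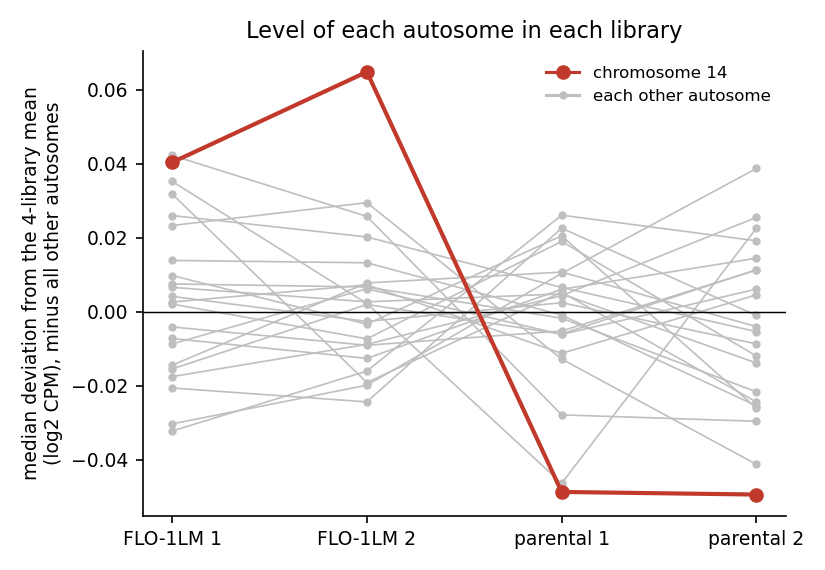
Level of each autosome in each of the 4 libraries, on the y axis in log2 CPM relative to the gene's 4-library mean and to the other autosomes. The red line, chromosome 14, sits at 0.040 and 0.065 in FLO-1LM and at -0.049 in both parental libraries, and grey lines are the other autosomes.

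Each pair of libraries gave the same direction between lines. The median shift of the members was 0.087 and 0.068 for FLO-1LM library 1 over parental libraries 1 and 2, and 0.11 for library 2 over each. Within lines it was -0.021 for FLO-1LM library 1 over 2 and 0.0069 for parental library 1 over 2. Pairs that share a library are not independent.

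The share of autosomal protein-coding counts that fell on chromosome 14 showed the shift with each gene weighted by its counts. It was 2.78% and 2.79% in FLO-1LM (95% Wilson intervals 2.770% to 2.785% and 2.786% to 2.800%) and 2.63% and 2.58% in parental cells (2.623% to 2.638% and 2.571% to 2.587%). The intervals cover counting error only. Both FLO-1LM shares lay above both parental shares, with a log2 ratio of 0.097. Without *HSP90AA1*, the member with the most counts, the shares were 2.57%, 2.59%, 2.45% and 2.41% in the same order, with a log2 ratio of 0.084.

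The shift ran along most of the arm. In consecutive 10 Mb bins, the median relative to the other autosomes was 0.098 from *TTC5* to *SDR39U1* (71 members), 0.069 from *G2E3* to *FBXO33* (31), 0.12 from *RPS29* to *JKAMP* (61) and 0.11 from *PCNX4* to *SLC39A9* (46). Further out it was 0.090 from *SUSD6* to *NRXN3* (72), 0.12 from *CEP128* to *FOXN3* (10) and 0.14 from *EFCAB11* to *CCDC85C* (47), where 41 members were higher. In the last bin, from *HHIPL1* to *TMEM121* (60), it was 0.031, and 35 members were higher. *POTEM* stood alone nearest the centromere.

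All 8 bins with at least 10 members thus lay above 0, and 4 of them lay at 0.1 or more. On the other autosomes 140 of 258 such bins (54.3%) lay above 0, and 17 (6.59%) at 0.1 or more, over a range of -0.14 to 0.21. Chromosome 19 also had all of its bins above 0 (5 of 5), and chromosome 18 had 6 of 7. In each of the 8 bins both FLO-1LM libraries stood above both parental libraries, although in the last bin the nearest libraries of the lines lay side by side, at 0.0046 and -0.00059. With 5 Mb bins, 13 of 13 lay above 0, and the libraries separated by line in 9 of them and overlapped in 4. Separation of the libraries was not counted in bins of the other autosomes, so it has no background here.

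**Figure D2:**
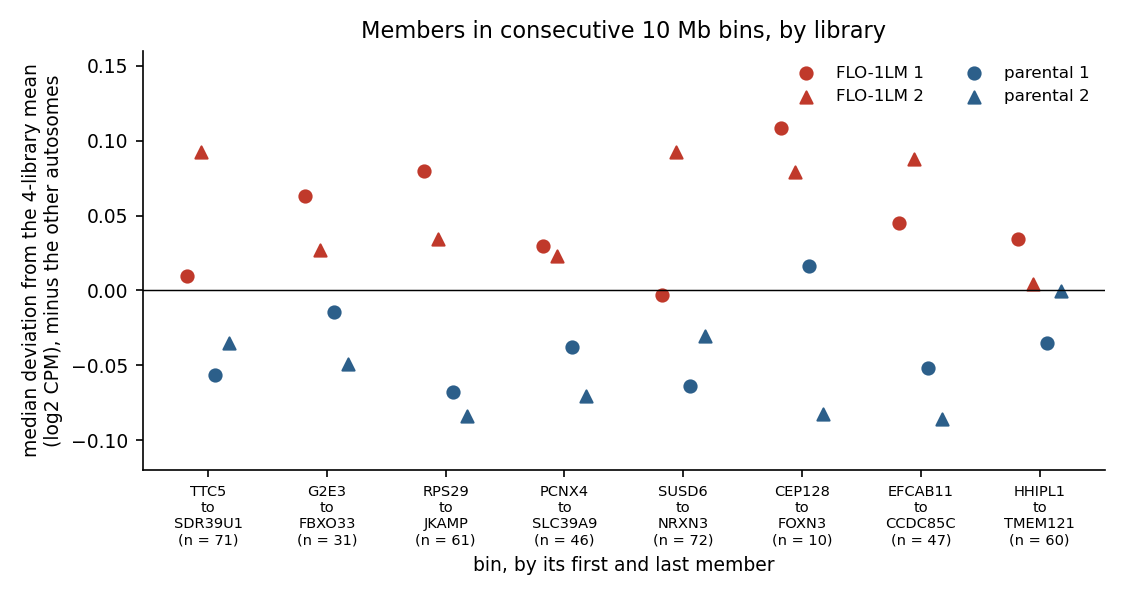
Median deviation of the members from the 4-library mean (y axis, log2 CPM, relative to the other autosomes) in the 8 bins of 10 Mb with at least 10 members, named on the x axis by their first and last member. Red marks are the FLO-1LM libraries and blue marks the parental libraries; the lines come closest in the last bin, at 0.0046 and -0.00059.

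Running medians over 25 consecutive members lay above 0 in 374 of 382 windows (97.9%), with a median of 0.10. The highest window, 0.18, ran from *TTC8* at 89.3 Mb to *LYSET* at 93.7 Mb. The lowest, -0.052, ran from *PAPOLA* at 97.0 Mb to *RCOR1* at 103.1 Mb. The windows below 0 were all near the end of the arm, followed again by higher values. Other low windows lay further in, at 0.0055 from *TMED10* to *ALKBH1* and at 0.012 from *NFATC4* to *PSMA6*.

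A single break that best divided the members by summed absolute deviation fell between *VRK1* at 97.3 Mb and *SETD3* at 99.9 Mb, and least squares placed it at the same point. The 343 members before it had a relative median of 0.11, with 258 higher (75.2%), and levels of 0.041 and 0.069 in FLO-1LM against -0.052 and -0.062 in parental cells. The 63 members after it had a relative median of 0.030, with 37 higher (58.7%). Their levels were 0.025 and -0.0077 in FLO-1LM and -0.041 and 0.0035 in parental cells, so the lines overlapped there. The break was fitted to these values, and the difference across it was not tested.

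*PAPOLA*, the nuclear poly(A) polymerase, had 293.6 and 285.1 CPM in FLO-1LM and 264.5 and 259.6 in parental cells, and *VRK1*, a chromatin kinase, had 45.3 and 42.0 against 39.97 and 36.3. Both were higher in both FLO-1LM libraries, with log2 fold changes of 0.14 and 0.19 that did not pass the test. *SETD3*, a histidine methyltransferase of actin, had 66.3 and 63.2 against 61.4 and 63.8, and *CCNK*, the cyclin of transcriptional kinases, had 44.9 and 44.7 against 52.7 and 52.4. *SETD3* overlapped between lines, and *CCNK* was lower in both FLO-1LM libraries, with a log2 fold change of -0.23.

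**Figure D3:**
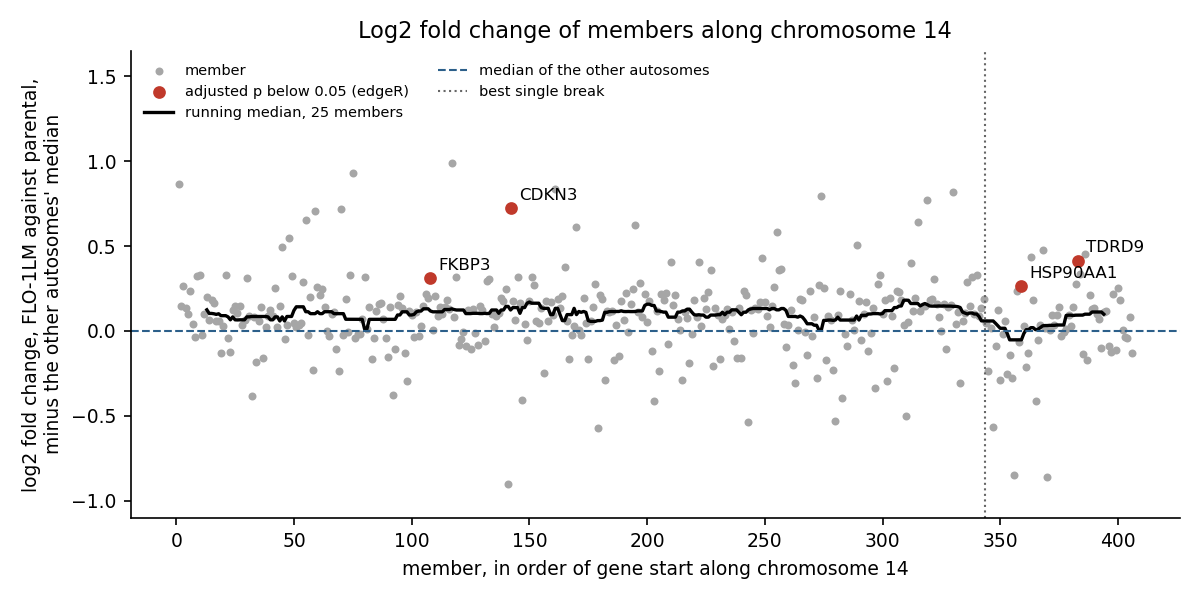
Log2 fold change of each of the 406 members, FLO-1LM against parental, minus the other autosomes' median (y axis), in order of gene start (x axis). The black running median over 25 members stays above 0 in 374 of 382 windows and falls lowest, to -0.052, just past the dotted best break, and red points are the 4 members past the threshold.

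The shift was of similar size across classes of genes. With genes divided in 3 by mean CPM, the members exceeded the other autosomes by 0.088, 0.11 and 0.088 from low to high. By exonic length the values were 0.12, 0.088 and 0.098, and by exonic GC content 0.094, 0.097 and 0.099. Genes on the forward strand gave 0.10 and those on the reverse strand 0.097. The 278 members that overlap an annotated gene on the other strand gave 0.10, and the 128 others 0.094. Across these classes the shift ran from 0.088 to 0.12 with no reversal.

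Among single members, 4 passed the test as higher in FLO-1LM and none as lower, at an adjusted p below 0.05 (edgeR's quasi-likelihood test, p-values adjusted over 17143 genes by Benjamini-Hochberg). That is 0.985% of the members, against a background of 0.402% of all genes tested and 0.401% of protein-coding genes on the other autosomes. The background for lower calls was 1.83% of all genes and 1.18% of the latter, and 8 members were lower at an unadjusted p below 0.05. DESeq2 and limma voom each called 4 higher and 0 lower too.

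*CDKN3*, a phosphatase that acts on cyclin-dependent kinases, had the smallest p. It had 1249 and 1601 counts in FLO-1LM and 825 and 652 in parental cells, or 56.0 and 62.1 against 37.4 and 33.97 CPM (59.1 ± 4.33 and 35.7 ± 2.42, SD, n = 2 each). Both FLO-1LM libraries stood well above both parental ones. The log2 fold change was 0.73 with a standard error of 0.10 and an edgeR adjusted p of 0.000341. It was the one member called in every alternative fit.

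*HSP90AA1*, the inducible cytosolic HSP90 chaperone, had 39862 and 44809 counts against 32693 and 27782, or 1788 and 1739 against 1482 and 1448 CPM. The lines did not overlap, and the log2 fold change was 0.27 with a standard error of 0.06 (edgeR adjusted p = 0.0295). Its value is uncertain, since 5 annotated pseudogene copies held 7095, 8811, 6163 and 5538 counts in the same libraries and could share its reads. It also overlaps *WDR20* on the other strand by 197 bases.

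*FKBP3*, a nuclear peptidyl-prolyl isomerase, had 2570 and 3053 counts against 2096 and 1782, or 115.2 and 118.5 against 94.99 and 92.9 CPM. The libraries of each line lay close together and the lines apart, with a log2 fold change of 0.32, a standard error of 0.08 and an edgeR adjusted p of 0.0427. It overlaps *PRPF39* on the other strand by 684 bases, which had 1044, 1193, 902 and 774 counts. The strand setting of the counting is not given in the sources used here.

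*TDRD9*, a helicase of the germline piRNA pathway, had 1668 and 2378 counts against 1433 and 1153, or 74.8 and 92.3 against 64.9 and 60.1 CPM. FLO-1LM library 2 stood highest by some way. The log2 fold change was 0.42 with a standard error of 0.10 (edgeR adjusted p = 0.033), and without FLO-1LM library 2 it was 0.26 with an edgeR adjusted p of 0.106. *RD3L* overlaps it on the other strand and had 0 counts. Both *HSP90AA1* and *TDRD9* lie beyond the break, in the stretch where the shift was smallest.

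Counts of called members depended on the libraries. Calls over all genes moved too when a library was left out, so nothing about chromosome 14 is read from counts of called members in those fits. In each of these fits the spread comes from the 1 line that kept 2 libraries, and the lone library is assumed to vary likewise. With library totals as the only scaling, *CDKN3* was called higher and *IRF2BPL* lower, against 52 higher and 362 lower of all 17143 genes tested.

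**Figure D4:**
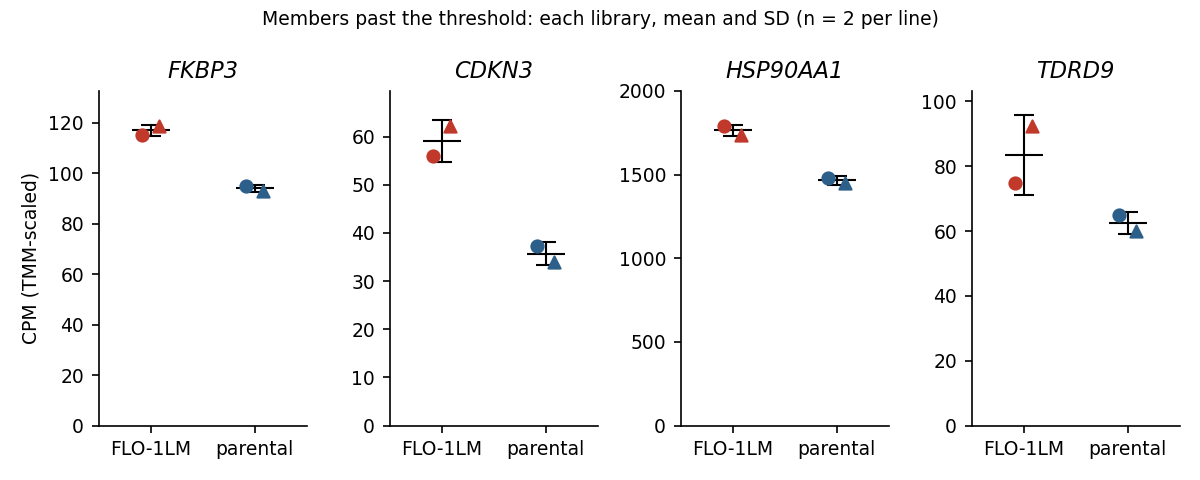
CPM (y axis, from 0, TMM-scaled) of the 4 members with an edgeR adjusted p below 0.05, in FLO-1LM and parental libraries. Marks are single libraries, and the long bars and whiskers are the mean and SD of 2 libraries; in all 4 panels both FLO-1LM marks lie above both parental marks.

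The members were then read by role, with lists drawn up from what each gene is known to do. Each list is a part of the 406 members, of which 295 (72.7%) were higher and 4 passed the test. Counts for a list are to be read beside those, and nothing about a role is read from them. The list of cell division, DNA replication and repair held 32 members, with a median log2 fold change of 0.15, against 0.10 over all members and 0.0045 over the other autosomes. Of these, 28 were higher, and *CDKN3* passed the test. *DLGAP5*, a mitotic spindle protein, had 133.9 and 141.5 against 118.4 and 109.1 CPM, a log2 fold change of 0.28 with an edgeR adjusted p of 0.0943. *DLGAP5* passed the test with no low-count filter (edgeR adjusted p = 0.04996), but not with DESeq2 (adjusted p = 0.109) or limma voom (adjusted p = 0.0844). *KIF26A*, a kinesin-like protein, had 31.6 and 33.6 against 32.2 and 39.2 CPM, with overlapping lines and a log2 fold change of -0.13.

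For RNA processing and translation, 28 of 32 members were higher, with a median of 0.11, and none passed the test. *HNRNPC*, a pre-mRNA binding protein, had 324.6 and 335.7 against 277.7 and 303.3 CPM (0.18). *TRMT5*, a tRNA methyltransferase, and *OSGEP*, an enzyme of tRNA threonylcarbamoylation, had log2 fold changes of 0.28 and 0.24. *WARS1*, the cytoplasmic tryptophanyl-tRNA synthetase, which is induced by interferon, stood the other way with 202.9 and 218.7 against 251.9 and 249.1 CPM (-0.25, edgeR adjusted p = 0.105). It was at -0.20 without FLO-1LM library 1 and at -0.30 without FLO-1LM library 2. *SRP54*, of the signal recognition particle, was at -0.04.

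Mitochondria and metabolism held 41 members with a median of 0.13, of which 34 were higher and none passed the test. *COQ6*, an enzyme of coenzyme Q synthesis, had 23.3 and 20.9 against 17.9 and 19.5 CPM (0.24), without overlap. *PCK2*, the mitochondrial phosphoenolpyruvate carboxykinase, had 74.5 and 114.7 against 68.8 and 82.4 CPM. Its log2 fold change of 0.33 (edgeR adjusted p = 0.333) rested on FLO-1LM library 2. Without that library it was -0.02, while without FLO-1LM library 1 it was 0.60. *MTHFD1*, an enzyme of folate metabolism, was at 0.04. *INF2*, an actin-assembling formin that acts in mitochondrial fission, had 112.0 and 106.1 against 117.8 and 126.7 CPM (-0.16).

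Protein folding, secretion and vesicle traffic held 48 members with a median of 0.12, 36 of them higher, and both *HSP90AA1* and *FKBP3* passed the test. *KTN1*, a receptor for kinesin on the endoplasmic reticulum, had 1393 and 1332 against 1267 and 1201 CPM (0.14), and *DYNC1H1*, the heavy chain of cytoplasmic dynein, had 477 and 477 against 532 and 463 (-0.06). The former did not overlap between lines and the latter did. *EML1*, a microtubule-associated protein, and *ARF6*, a small GTPase of endocytic traffic, were at -0.09 and -0.08, both with overlapping lines.

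The proteasome and ubiquitin list held 23 members with a median of 0.09, of which 18 were higher and none passed the test. *ATXN3*, a deubiquitinase, had 35.1 and 27.9 against 25.4 and 22.0 CPM (0.40, edgeR adjusted p = 0.163). Its log2 fold change was 0.23 without FLO-1LM library 1 and 0.56 without FLO-1LM library 2. *NEDD8*, a ubiquitin-like modifier, had 47.8 and 43.5 against 38.7 and 39.96 (0.22). *PSME1*, a subunit of the interferon-inducible proteasome activator, had 177.8 and 164.3 against 171.1 and 164.5 (0.03), and *BTBD7* was at 0.0045. The last pair overlapped between the lines.

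Transcription factors and coregulators had a median of 0.06 over 32 members, 20 of them higher, with none past the test. *FOXN3*, a forkhead repressor, had 52.7 and 53.1 against 42.6 and 41.4 CPM (0.33, edgeR adjusted p = 0.0847). Its log2 fold change ran from 0.30 to 0.35 over the alternative fits, and it passed the test in no fit that kept all 4 libraries. *HIF1A* had 147.6 and 117.5 against 111.8 and 116.0 (0.22), so only FLO-1LM library 1 stood clearly apart. Without that library its log2 fold change was 0.04, and without FLO-1LM library 2 it was 0.37. *MIDEAS*, a scaffold of a mitotic histone deacetylase complex, was at -0.16 and *TOX4*, a chromatin-associated HMG-box protein, at -0.13.

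Signaling, apoptosis and adhesion had the lowest median of the 7 lists, 0.05, with 39 of 61 members higher, and *CDKN3*, which is on this list too, passed the test. *LGALS3*, the lectin galectin-3, had 38.1 and 39.5 against 28.8 and 33.1 CPM (0.33). *ZFYVE1*, a phosphoinositide-binding protein of endomembranes, had 28.2 and 32.1 against 34.2 and 35.2 (-0.20), and *PAPLN*, an extracellular matrix protein, had 95.7 and 109.0 against 112.3 and 116.4 (-0.16). The 265 members on any list had a median of 0.10 and the 141 on none 0.11. Medians of all lists lay above that of the other autosomes, which is no separate result, since the lists are parts of the shifted set. Differences between lists were not tested.

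The members with the largest differences had few counts, and none of them passed the test with all 4 libraries and the low-count filter. *BMP4* had 63 and 41 counts in FLO-1LM and 92 and 77 in parental cells (-0.90), *EXOC3L4* 37 and 42 against 68 and 55 (-0.85) and *DLK1*, an imprinted Notch ligand-like gene, 35 and 37 against 55 and 56 (-0.85). *SLC38A6*, an amino acid transporter family gene, had 151 and 118 against 173 and 171 (-0.57). In each of these falls the lines did not overlap. Without FLO-1LM library 1, *BMP4* was at -1.36 and *SLC38A6* at -0.87. Without FLO-1LM library 2 they were at -0.53 and -0.30.

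In the other direction, *KLHDC1* had 80 and 86 counts against 44 and 28 (0.99), and *COCH*, which encodes the extracellular protein cochlin, had 168 and 132 against 69 and 67 (0.93). *POTEM* had 28 and 25 against 14 and 11 (0.87), and *ARMH4* had 77 and 66 against 38 and 31 (0.84). *POTEM* is one of a family of near-identical genes, so its counts are uncertain. These rises had no overlap between lines either, with edgeR adjusted p of 0.0882 for *COCH* and larger for the others. *COCH* was at 1.19 without FLO-1LM library 2 and at 0.63 without FLO-1LM library 1. It passed the test with no low-count filter (edgeR adjusted p = 0.0203), but not with DESeq2 (adjusted p = 0.220) or limma voom (adjusted p = 0.152).

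Members just inside the count minimum were *ISM2*, with 10 and 22 counts in FLO-1LM and 13 and 22 in parental cells, *PRIMA1*, with 53 and 10 against 36 and 15, and *TMEM179*, with 25 and 29 against 10 and 23. Just outside it were *BCL2L2-PABPN1*, with 12 and 11 against 12 and 9, *TGM1*, with 50 and 9 against 24 and 33, and *GPR137C*, with 42 and 24 against 8 and 12. The last member on the arm, *TMEM121*, had 151 and 160 against 170 and 123 counts.

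Noncoding genes on chromosome 14 with the same minimum numbered 92. Their median log2 fold change was 0.07 with 59.8% higher, against 0.0054 and 50.5% for 2840 on the other autosomes. Chromosome 14 protein-coding genes that were tested but had under 10 counts in a library numbered 19, with a median of -0.13 and 8 higher, against -0.20 and 40.2% higher for 473 elsewhere. They passed the filter through the line in which they were high so nothing is read from them.

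Marker genes were read for the cell type of the libraries. The summed level of 6 epithelial and carcinoma markers was 489 to 504 CPM in FLO-1LM and 862 to 873 in parental cells, mostly keratins, with *EPCAM* at 3 to 12 counts in every library. Summed markers of other cells were low: 0.85 to 0.93 CPM against 0.47 to 0.50 for 4 leukocyte genes (*PTPRC* at 0), 0.039 to 0.13 against 0.045 to 0.31 for 2 endothelial genes, and 0.045 to 0.27 against 0.045 to 0.10 for 3 hepatocyte genes (*ALB* and *TTR* at 0). For 4 fibroblast genes the sum was 10.7 to 13.0 against 9.9 to 12.8 CPM, nearly all of it *COL1A1*, with *DCN* at 0. The mitochondrial share and the leukocyte sum were higher and the epithelial sum lower in FLO-1LM, and their part in the shift was not tested.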

How the data were processed

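RNA was measured in 4 libraries, 2 of FLO-1LM and 2 of FLO-1 parental cells, assigned to lines by the sample labels. The authors deposited raw read counts per Ensembl gene, 1 table per library and without normalization, from directional libraries. Per the submitters' processing notes, bcl2fastq 2.17, Trimmomatic 0.30 and GRCh37 were used. The aligner, the counter and the strand option of the counter are not given in the sources used here.

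Counts were fitted with edgeR 4.0.16 in R 4.3.3 (filterByExpr with a minimum count of 10 and a minimum total of 15, TMM, glmQLFit and glmQLFTest), which left 17143 of 63677 genes. The common biological coefficient of variation was 0.090. P-values were adjusted by the Benjamini-Hochberg method over all 17143 genes. CPM are TMM-scaled, and standard errors are the absolute log2 fold change over the square root of F. The median standard error of a member's log2 fold change was 0.12, with 2 libraries per line. The fit was tested on simulated data first. Biotypes and positions came from GENCODE mapped to GRCh37, a later annotation than the one counted on, and 8012 listed genes had no biotype in it. Promoters came from the RefSeq table (GRCh38), placed in GRCh37 by exact match. Remaining steps used scipy 1.17.1 under Python 3.11.15.

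The members and lists were chosen with earlier results of these data known. Members named in the text were those called, the 4 largest log2 fold changes in each direction, the 4 with the highest mean CPM, the first and last member, the 2 on each side of the break, the 2 lowest and 2 highest of each list at a mean of at least 20 CPM, and the 3 nearest the count minimum on each side. *IRF2BPL* and marker genes were named outside this rule, the former after its values were seen. Alternatives were RLE factors, library totals only, DESeq2 1.42.0, limma voom (limma 3.58.1), no low-count filter, mitochondrial genes left out, minima of 50 and 200 counts, members overlapping a gene on the other strand left out, other averages, and each library left out in turn. *PECAM1* was not analysed here.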

Additional observations from a re-analysis of the deposited data

How the results depend on the processing

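The chromosome 14 shift of 0.098 ran from 0.093 to 0.11 over the scalings, tools, filters, minima, averages and exclusions tried, and from 0.088 to 0.114 when a library was left out. All bins of 10 Mb with enough members stayed above 0 in every such fit. Members called higher fell from 4 to 1 with library totals only, where 1 was called lower, and to 1 with overlapping members left out, which removes 3 of the 4. With no low-count filter, 8 were called higher and 0 lower, against 147 higher and 430 lower of all 26287 genes tested. The median over the other autosomes was -0.03 with library totals only, and 67.7% of members were then higher, against 72.7%. Calls over all genes, higher and lower, rose without either FLO-1LM library and fell without either parental library. The counts of called members that follow moved with them, and nothing about chromosome 14 is read from these counts. With a library left out, members called higher ran from 1 to 21 and lower from 0 to 4, and members without overlap ran from 225 to 245 higher and 67 to 93 lower, since fewer libraries have to separate. *FKBP3*, *HSP90AA1* and *TDRD9* had adjusted p of 0.0738, 0.0545 and 0.0507 with library totals only, and without a parental library they ran from 0.142 to 0.517.

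Of 46 named members, 35 kept their direction in all 10 alternative fits. With library totals only, *BTBD7* was at -0.0261 and *PSME1* at -0.0036, and under limma voom *PRIMA1* was at -0.34. With a library left out, the log2 fold change crossed 0 for *ARF6* from -0.211 to 0.0385, *BTBD7* from -0.0316 to 0.043, *DYNC1H1* from -0.157 to 0.0432, *EML1* from -0.226 to 0.0401, *ISM2* from -0.929 to 0.15, *KIF26A* from -0.265 to 0.0188, *PCK2* from -0.0184 to 0.603, *PRIMA1* from -1.64 to 0.957, *PSME1* from -0.0313 to 0.0841, *TMEM121* from -0.248 to 0.0175 and *TMEM179* from -0.0929 to 1.3. The cause was not tested. A further alternative, chosen after seeing the data, was the count share without *HSP90AA1*.

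No paired analysis was possible because the labels give the lines no shared replicate numbers, and the library numbers used here only name the libraries. Batch is not stated in the labels and could not be separated from line. With 2 libraries per line, the shift is below the standard error of a single member.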
